A study of Mus musculus with 6 samples.

Results

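The nuclear genes of the mitochondrial respiratory chain and of the ATP synthase were followed in Lewis lung carcinoma (LLC) cells, a transplantable mouse lung tumour line, after transfection with a microRNA mimic. Members were the protein-coding rows of the count table whose symbols begin with Nduf, Uqcr, Cox4 to Cox8 or Atp5, together with Cyc1, Sdhb, Sdhc and Sdhd. This rule took 95 of 24794 rows, which carry 94 symbols because Atp5po is listed under 2 gene IDs. There were 3 libraries of LLC cells given miR-291-3 mimics (the mimic libraries) and 3 of LLC cells given a control mimic (the control libraries), so that transfection and the cell line are common to both groups. The series' design text names the microRNA as miR-291a-3p and asks what its overexpression does in these cells. The labels do not state whether libraries of 1 group are separate cultures, and p-values here reflect library-to-library spread, which may be technical.

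The respiratory chain passes electrons from NADH (complex I) and succinate (complex II) through coenzyme Q, complex III and cytochrome c to oxygen at complex IV, and complexes I, III and IV pump protons across the inner mitochondrial membrane. The ATP synthase uses the proton gradient to make ATP. Apart from complex II, each complex joins nuclear-encoded subunits, made in the cytosol and imported, with subunits encoded by mitochondrial DNA. Assembly factors are needed to build a complex but are not part of the finished enzyme.

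Depth was 25376993 to 32963986 counts per library, and 13779 genes were tested, 90 of the 95 member rows among them. Levels are given as CPM, a gene's counts scaled to its library's total and corrected by TMM (trimmed mean of M-values), and differences as log2 changes of mimic over control libraries with the SE from edgeR's quasi-likelihood test. A gene was called risen or fallen at a Benjamini-Hochberg adjusted p under 0.05 over all tested genes. The epithelial keratin Krt8 had 545 to 562 CPM in the mimic libraries and 486 to 501 CPM in the control libraries, and the mesenchymal marker Vim had 1864 to 1898 CPM in the mimic libraries and 2048 to 2071 CPM in the control libraries. The defining markers Epcam, Cdh1, Ptprc and Cdh5 were each below 0.2 CPM in every library, and no row carried the symbols of the alveolar and airway markers Sftpc, Nkx2-1 and Scgb1a1. The leukocyte genes Cd14 (6.30 CPM in the mimic libraries and 9.62 CPM in the control libraries) and Lyz2 (2.78 CPM in the mimic libraries and 5.52 CPM in the control libraries) fell, as did Pdgfra (19.2 to 20.8 CPM in the mimic libraries and 27.7 to 31.7 CPM in the control libraries), a fibroblast marker, and their part in the results was not tested. Of the low markers, Krt18 had 3.13 to 4.39 CPM in the mimic libraries and 1.63 to 2.36 CPM in the control libraries and rose, Cd68 and Pecam1 were not called, and Col1a1 had 0.105 to 3.75 CPM in the mimic libraries and 0.035 to 0.149 CPM in the control libraries and was not tested. In such bulk libraries fewer cells of a type and less RNA per cell cannot be told apart.

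The mature miR-291a-3p and the member 3' UTR stretches that match its seed are shown first, since a microRNA recognises its targets mainly through this seed. The microRNA is from RefSeq on GRCm38.p6 at chr7:3218968-3218989, plus strand, with bases 2 to 8 in capitals.
mmu-miR-291a-3p: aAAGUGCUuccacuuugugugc
Matches were sought in the longest annotated 3' UTR of each gene (GENCODE M21, GRCm38) as an 8mer (AGCACTTA), a 7mer-m8 (AGCACTT) or a 7mer-A1 (GCACTTA). Of 87 members with a 3' UTR, 7 held a match (8.05%), against 2418 of 11554 tested protein-coding genes (20.9%). Member 3' UTRs were short, with a median of 203 bases against 1168 bases over the 11554 genes. The stretches of 6 of them are written 5' to 3' along the mRNA, with the match in capitals.
Ndufs4, 8mer: acgaaatcagAGCACTTAgagtttacca
Ndufaf4, 7mer-A1: tttactcagtGCACTTAaacactcatg
Sdhd, 7mer-m8: cctgggtgcAGCACTTtgattgtgtg
Atp5mc1, 7mer-m8: tagtaatcccAGCACTTggagtatgca
Ndufb2, 7mer-m8: tcaattacatAGCACTTtttggggggt
Ndufb8, 7mer-m8: ctataatcccAGCACTTgggaggctga
None of these 6 genes was called fallen with TMM scaling. With scaling to total counts only, Atp5mc1 was called fallen (log2 change -0.062 ± 0.025 SE, adjusted p = 0.041, edgeR). Ndufs4, a supernumerary complex I subunit needed for a stable NADH-oxidising arm, holds the 8mer. It had 86.7, 90.9 and 92.3 CPM in the mimic libraries, against 77.3, 80.3 and 81.2 CPM in the control libraries, and its groups did not overlap (log2 change 0.18 ± 0.031 SE, adjusted p = 1.8e-05). Ndufaf4 and Ndufb8 also rose, and Sdhd, Atp5mc1 and Ndufb2 were not called, with log2 changes of 0.048, -0.0059 and -0.038. The Ndufb8 match is absent from that gene's longest-coding transcript. The letters around the Ndufb8 and Atp5mc1 matches are alike, and such a stretch is also known from B1 repeats of the mouse genome; whether these are repeat copies was not tested. A match is a description of letters, not a measured site.

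Most nuclear-encoded members were slightly higher in the mimic libraries. Of the 90 tested rows, 65 rose and 2 fell (Ndufv1 and Atp5if1), where 24.3% of all tested genes rose and 24.8% fell. The 3 mimic libraries lay above the 3 control libraries for 64 members and below them for 2, against 27.0% and 27.9% of all tested genes. The median log2 change of the members was 0.13, or 9.27%, with a range of -0.18 to 0.36, and that of all tested genes was -0.0078. Members together took 1.66% ± 0.013 of all counts in the mimic libraries and 1.59% ± 0.012 in the control libraries (SD, n = 3 each), a share that does not rest on TMM. With scaling to total counts only, 45 members rose and 5 fell, and the median was 0.071 with that of all tested genes at -0.064.

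**Figure D1:**
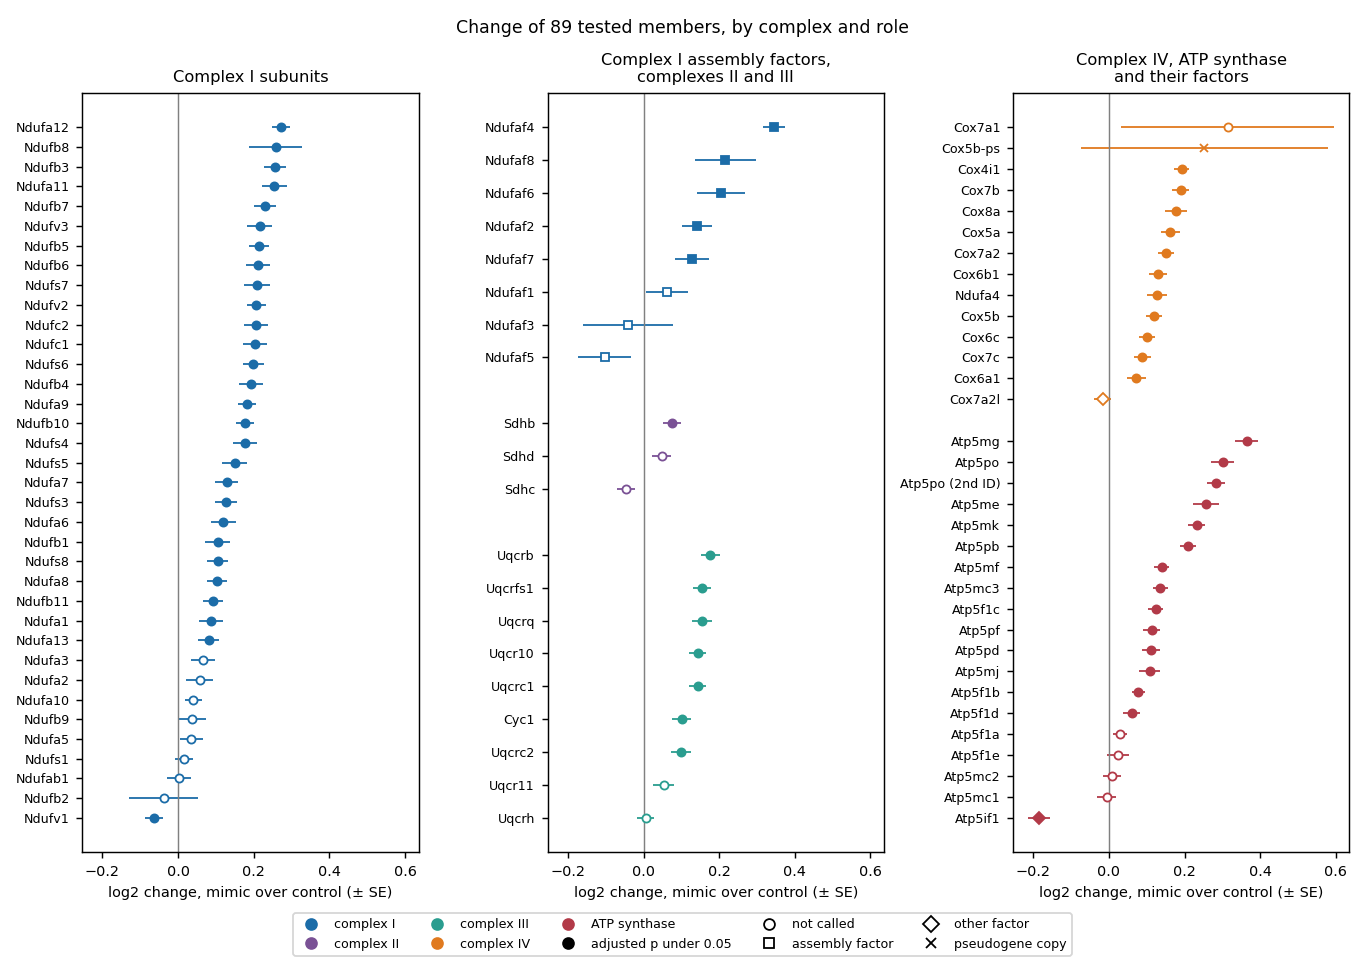
Log2 change of mimic over control libraries (horizontal axis) with its SE for 89 of the 90 tested members, grouped by complex and role, filled where the adjusted p was under 0.05 (Cox5b-ps is drawn as a cross). Most points lie between 0 and 0.3, and Ndufv1 and Atp5if1 are the filled points below 0.

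Complex I, the NADH dehydrogenase and the largest of the complexes, had 37 tested nuclear subunits, of which 27 rose and 1 fell. Its nuclear core subunits include those with the flavin and the iron-sulphur clusters that take electrons from NADH to coenzyme Q. Of these 4 rose and 1 fell, with a median of 0.10. Ndufv2, the iron-sulphur partner of the NADH-binding subunit, rose (170.2 ± 4.40 CPM in the mimic libraries and 147 ± 2.61 CPM in the control libraries, SD, n = 3 each; log2 change 0.21). Ndufs7 and Ndufs8, which carry the clusters nearest to coenzyme Q, rose, with log2 changes of 0.21 and 0.10, and Ndufs3 rose by 0.13. With total counts only, Ndufs8 (0.048 ± 0.028 SE, adjusted p = 0.17) and Ndufs3 (0.070 ± 0.030 SE, adjusted p = 0.053) were not called, 2 core subunits rose and the class median was 0.048. Ndufs1, the largest core subunit, had 150.4, 152 and 151 CPM in the mimic libraries, against 149, 152 and 147 CPM in the control libraries. Its groups overlapped, with a log2 change of 0.015 ± 0.024 SE.

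Ndufv1, which binds NADH and the flavin, was the core subunit that fell. It had 139, 139.8 and 142 CPM in the mimic libraries, against 146, 146 and 147 CPM in the control libraries. The mimic libraries were all lower, by a small amount (log2 change -0.064 ± 0.024 SE, adjusted p = 0.027). The call was lost when any 1 of the 6 libraries was left out, with the DESeq2 Wald test and with no filter on low counts, while with total counts only the log2 change was -0.12 ± 0.024 SE, adjusted p = 8.8e-05.

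The 30 supernumerary subunits surround the core, and some are needed for its stability. In this class 23 rose, none fell and 7 were not called, with a median of 0.16. Ndufa12, a subunit of the peripheral arm, had 206, 199 and 199 CPM in the mimic libraries, against 168, 169 and 164 CPM in the control libraries, so that every mimic library was higher (log2 change 0.27 ± 0.023 SE, adjusted p = 3.7e-11). Ndufb3, in the membrane arm, had 109, 111 and 113 CPM in the mimic libraries, against 94.9, 94.2 and 89.8 CPM in the control libraries. Its groups were likewise apart (log2 change 0.26 ± 0.029 SE, adjusted p = 9.3e-09). Of the membrane arm subunits named Ndufb, Ndufb5, Ndufb6, Ndufb7, Ndufb4, Ndufb10, Ndufb1 and Ndufb11 also rose, by 0.091 to 0.23 on the log2 scale. Ndufa11, Ndufv3, Ndufc1, Ndufc2, Ndufs6, Ndufa9 and Ndufs5 rose by 0.15 to 0.25, and Ndufa7, Ndufa6, Ndufa8, Ndufa1 and Ndufa13 by 0.081 to 0.13. Members outside the naming rule given with the processing are listed so that the whole family is shown, and were chosen after their values were seen.

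Ndufab1, the mitochondrial acyl carrier protein, which also serves fatty acid and iron-sulphur cluster synthesis, had 80.6, 84.4 and 82.1 CPM in the mimic libraries, against 82.1, 78.9 and 85.6 CPM in the control libraries. Its groups overlapped (log2 change 0.0020 ± 0.032 SE, adjusted p = 0.96). Ndufa2, Ndufa3, Ndufa5, Ndufa10 and Ndufb9 were not called either, with log2 changes of 0.035 to 0.066. Ndufb2 had 166 to 242 counts per library and a log2 change of -0.038 ± 0.092 SE. It shares 145 exon bases with the annotated gene Gm42420 on the same strand, which held 367 to 499 counts, and Ndufb8 shares 134 bases with Gm20538, which held 3804 to 4654 counts against 347 to 456 for Ndufb8. How reads were divided within these pairs is not given, so the levels and changes of Ndufb2 and of Ndufb8, which rose in the fit (log2 change 0.26 ± 0.069 SE, adjusted p = 0.0025), are uncertain, as is that of Ndufb9, which shares 193 exon bases with Gm49356.

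Of the 8 complex I assembly factors that the rule takes in, 5 rose, none fell and 3 were not called, with a median of 0.13, where the 79 subunit rows of all complexes had 60 risen, 1 fallen and a median of 0.13. Ndufaf4, which works early in assembly together with Ndufaf3, had 106, 113 and 113 CPM in the mimic libraries, against 85.5, 89.3 and 87.2 CPM in the control libraries. No mimic library came near the control libraries, and the rise was 27.1% (log2 change 0.35 ± 0.030 SE, adjusted p = 3.6e-11). Its partner Ndufaf3 had 5.37, 3.90 and 5.12 CPM in the mimic libraries, against 4.81, 5.06 and 4.90 CPM in the control libraries. This low gene was not called, with a log2 change of -0.041 ± 0.12 SE.

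Ndufaf6, another early factor, rose (log2 change 0.20 ± 0.063 SE, adjusted p = 0.0072), as did Ndufaf2 (log2 change 0.14 ± 0.039 SE, adjusted p = 0.0032), a paralog of the subunit Ndufa12 that acts late. Ndufaf8 rose (log2 change 0.22 ± 0.080 SE, adjusted p = 0.025) and Ndufaf5 was not called (log2 change -0.10 ± 0.070 SE, adjusted p = 0.24). In human cells NDUFAF8 is the partner of NDUFAF5, the enzyme that hydroxylates the core subunit NDUFS7. Ndufaf7, a methyltransferase of early complex I assembly, rose (log2 change 0.13 ± 0.044 SE, adjusted p = 0.017), and Ndufaf1 was not called (log2 change 0.062 ± 0.055 SE, adjusted p = 0.38). The calls of Ndufaf7 and Ndufaf8 were lost with DESeq2, and when 1 library was left out in 2 and 3 of 6 cases. With total counts only, Ndufaf4 and Ndufaf6 were still called and Ndufaf2, Ndufaf7 and Ndufaf8 were not. That is 2 of 8 risen, where 17.0% of all tested genes rose.

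**Figure D2:**
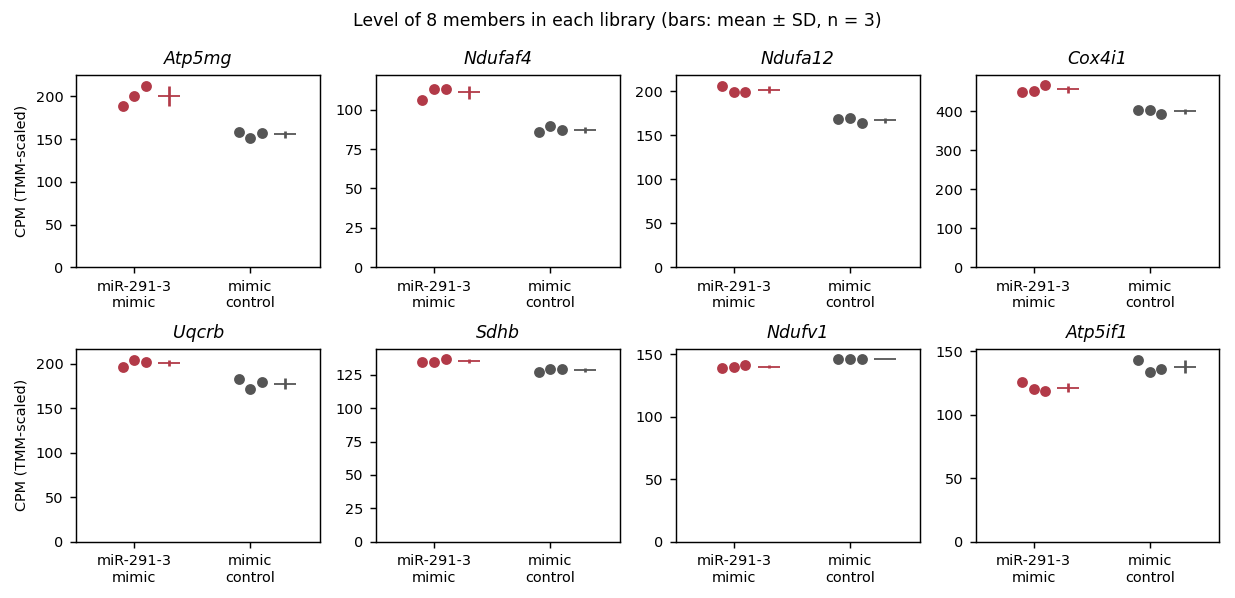
CPM (vertical axis, from 0) of 8 members in each mimic library (left, red) and control library (right, grey), with the mean ± SD of 3 libraries beside the points. The mimic points are higher for Atp5mg, Ndufaf4, Ndufa12, Cox4i1, Uqcrb and Sdhb, and lower for Ndufv1 and Atp5if1.

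Complex II, succinate dehydrogenase, had the smallest median of the 5 complexes, 0.048 over 3 subunits, and with total counts only the median was below 0, at -0.0085. Summed, the 3 took 0.0428% ± 0.000534 of counts in the mimic libraries and 0.0440% ± 0.0000623 in the control libraries (SD, n = 3 each). Sdhb, the iron-sulphur subunit, had 134, 135 and 137 CPM in the mimic libraries, against 127, 129 and 129 CPM in the control libraries. The mimic libraries lay above all control libraries by a small margin (log2 change 0.076 ± 0.025 SE, adjusted p = 0.012), and with total counts only the log2 change was 0.019 ± 0.025 SE, adjusted p = 0.55. The membrane anchors Sdhd and Sdhc, which hold the coenzyme Q site together with Sdhb, were not called, with log2 changes of 0.048 ± 0.026 SE and -0.047 ± 0.024 SE. Scaled to total counts only, Sdhc was called fallen (-0.10 ± 0.024 SE, adjusted p = 6.5e-04). The flavoprotein Sdha, outside the rule, was at -0.013 ± 0.022 SE.

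Complex III, which passes electrons from coenzyme Q to cytochrome c, had 7 of 9 subunits risen and none fallen, with a median of 0.14. Uqcrb, a small subunit next to cytochrome b, had 197, 205 and 202 CPM in the mimic libraries, against 183, 171 and 179.9 CPM in the control libraries. Its groups did not overlap (log2 change 0.18 ± 0.025 SE, adjusted p = 5.1e-07). Uqcrc1, a core subunit, had 393, 408 and 404 CPM in the mimic libraries, against 355, 364 and 372 CPM in the control libraries, again without overlap (log2 change 0.14 ± 0.021 SE, adjusted p = 1.3e-06). The Rieske iron-sulphur protein Uqcrfs1 rose by 0.15 on the log2 scale and cytochrome c1, Cyc1, by 0.10. Uqcrq, Uqcr10 and Uqcrc2 rose by 0.15, 0.14 and 0.099. Uqcr11 was not called (0.053 ± 0.029 SE). Uqcrh, the hinge protein that docks cytochrome c1 to cytochrome c, had 187, 183 and 188 CPM in the mimic libraries, against 189.9, 184 and 182 CPM in the control libraries, and its groups overlapped (log2 change 0.0054 ± 0.024 SE, adjusted p = 0.87).

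Complex IV, cytochrome c oxidase, had 12 tested subunits, of which 11 rose and none fell, with a median of 0.14. Cox4i1, the broadly expressed form of the largest nuclear subunit, had 450.5, 453 and 467 CPM in the mimic libraries, against 404, 404 and 393 CPM in the control libraries. The groups were well apart (log2 change 0.19 ± 0.020 SE, adjusted p = 2.5e-09). Cox7b had 339, 344 and 339 CPM in the mimic libraries, against 302, 288 and 305 CPM in the control libraries (log2 change 0.19 ± 0.022 SE, adjusted p = 1.4e-08), and here too every mimic library was higher. Cox8a, Cox5a, Cox7a2, Cox6b1, Cox5b, Cox6c, Cox7c and Cox6a1 rose by 0.072 to 0.18 on the log2 scale. Ndufa4, named as a complex I gene and now counted as a complex IV subunit, rose by 0.13, with 248, 260.5 and 263 CPM in the mimic libraries, against 248, 225 and 233 CPM in the control libraries, so that its lowest mimic library lay just under its highest control library.

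Where complex IV subunits have tissue isoforms, the broadly expressed form was the one well above 1 CPM. Cox4i2 (a form found in lung), Cox6a2 (heart and muscle), Cox6b2 and Cox7b2 (testis) and Ndufa4l2 (a hypoxia-responsive paralog of Ndufa4) had at most 0.297 CPM in any library and were not tested, and no row carried Cox8b or Cox8c. Cox7a1, the heart and muscle form, had 0.962, 0.650 and 0.702 CPM in the mimic libraries, against 0.531, 0.624 and 0.684 CPM in the control libraries, which its SE does not separate from 0 (log2 change 0.31 ± 0.28 SE, adjusted p = 0.38), while Cox7a2 had 283 CPM in the mimic libraries and 255 CPM in the control libraries. Cox5b-ps, a row named as a pseudogene of Cox5b but typed protein-coding, had 0.280, 1.12 and 1.02 CPM in the mimic libraries, against 0.697, 0.520 and 0.832 CPM in the control libraries, and its reads may be shared with Cox5b. Cox7a2l, a factor that joins complex III and complex IV into supercomplexes, had 205, 212 and 206 CPM in the mimic libraries, against 209, 212 and 209.9 CPM in the control libraries. Its groups overlapped (log2 change -0.017 ± 0.022 SE, adjusted p = 0.57), and with total counts only it was called fallen (-0.073 ± 0.022 SE, adjusted p = 0.0059).

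Among the 18 ATP synthase rows 14 rose and none fell, with a median of 0.12. Atp5mg, subunit g of the membrane part, had the largest change of all members at 2 CPM or more. It had 189, 199.9 and 212 CPM in the mimic libraries, against 158, 151 and 158 CPM in the control libraries. All mimic libraries were higher, by 28.7% in the fit (log2 change 0.36 ± 0.029 SE, adjusted p = 8.6e-12). Subunits e and f and the small membrane proteins encoded by Atp5mk and Atp5mj rose, with log2 changes of 0.26, 0.14, 0.23 and 0.11.

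Atp5po encodes the protein that ties the peripheral stalk to the catalytic head. Its 2 IDs had log2 changes of 0.30 ± 0.030 SE and 0.28 ± 0.024 SE, and they share 130 exon bases, so they are not separate evidence. The second ID also shares 204 exon bases with Donson, so its level and change are uncertain. The other stalk subunits Atp5pb, Atp5pf and Atp5pd rose by 0.21, 0.11 and 0.11. In the catalytic head, Atp5f1b, the beta subunit, had 2675, 2695 and 2726 CPM in the mimic libraries, against 2578, 2539.9 and 2552 CPM in the control libraries. The difference was small and without overlap (log2 change 0.078 ± 0.016 SE, adjusted p = 1.5e-04), and with total counts only it was not called (0.022 ± 0.015 SE, adjusted p = 0.26). Atp5f1c and Atp5f1d rose by 0.12 and 0.060, the second of these calls lost in 4 of 6 leave-one-out fits and with total counts only (0.0034 ± 0.022 SE, adjusted p = 0.92). Atp5f1a and Atp5f1e were not called, at 0.030 ± 0.018 SE and 0.025 ± 0.029 SE.

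The c ring, which turns as protons pass, is built from 1 mature protein encoded by 3 genes, of which Atp5mc3 was called risen and the others were not called. Atp5mc3 had 470.3, 478 and 466 CPM in the mimic libraries, against 439, 422 and 425 CPM in the control libraries, with no overlap (log2 change 0.14 ± 0.020 SE, adjusted p = 1.3e-06). Atp5mc1 had 191, 195 and 192 CPM in the mimic libraries, against 186, 192 and 202 CPM in the control libraries. Atp5mc2 had 188, 190.2 and 186 CPM in the mimic libraries, against 189, 190.0 and 183 CPM in the control libraries. Both of these overlapped between groups, with log2 changes of -0.0059 ± 0.025 SE and 0.0082 ± 0.023 SE, and the differences between the 3 genes' changes were not tested. Atp5mc1 was called fallen with total counts only (-0.062 ± 0.025 SE, adjusted p = 0.041).

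Atp5if1, the inhibitor that stops the ATP synthase from running backwards and splitting ATP, went the other way. It had 125, 119.8 and 118 CPM in the mimic libraries, against 143, 134 and 136 CPM in the control libraries. Every mimic library was lower than every control library, by 0.18 on the log2 scale (log2 change -0.18 ± 0.028 SE, adjusted p = 2.2e-06). It was called fallen in the DESeq2 fit, in the limma fits on FPKM and in each of the 6 leave-one-out fits.

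**Figure D3:**
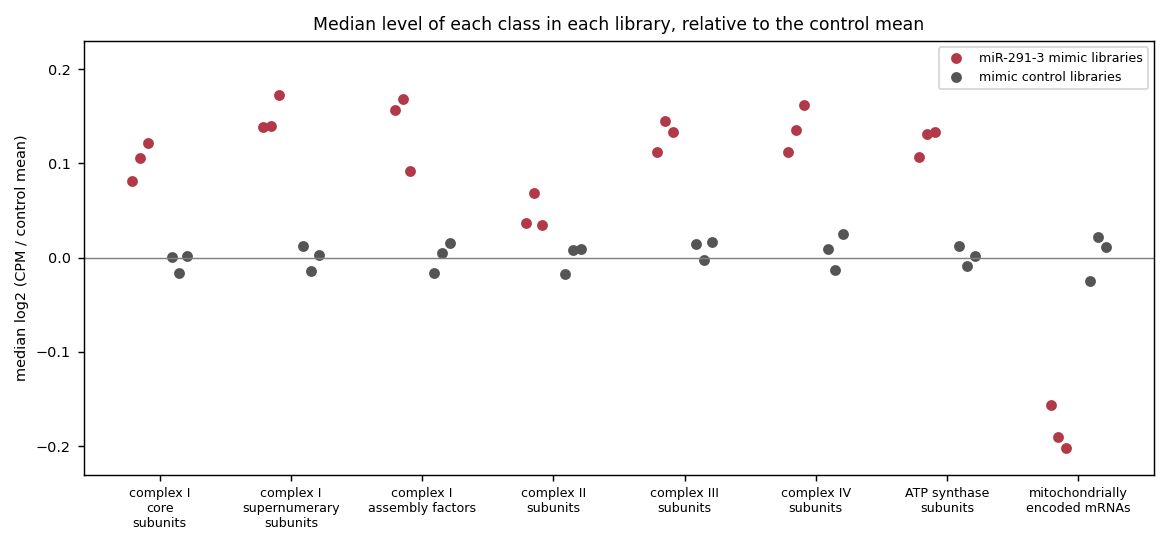
Median over each class of log2 CPM relative to the control mean (vertical axis), 1 point per library, mimic libraries in red left of control libraries in grey. The mimic points are above the control points for the 7 nuclear classes, with complex II nearest to 0, and below them for the mitochondrially encoded mRNAs.

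The mitochondrially encoded partners of these subunits were lower in the mimic libraries. Of the 13 mRNAs encoded by mitochondrial DNA, 10 fell (76.9%, against 24.8% of all tested genes) and 1 rose (7.69%, against 24.3%). The other 2 were not called, and the median was -0.21. Together they took 3.15% ± 0.031 of counts in the mimic libraries and 3.68% ± 0.064 in the control libraries (SD, n = 3 each). For complex I, mt-Nd1, mt-Nd2, mt-Nd4, mt-Nd5 and mt-Nd6 had log2 changes of -0.072, -0.13, -0.17, -0.14 and -0.23. The libraries were of polyadenylated RNA and the strand setting of the counting is not given. What either did to the mitochondrial values was not tested. Cytochrome b of complex III, mt-Cytb, had 8027, 8179 and 8005 CPM in the mimic libraries, against 9406, 9509 and 9388 CPM in the control libraries. The catalytic subunit of complex IV, mt-Co1, had 8099, 8276 and 8101 CPM in the mimic libraries, against 9229, 9673 and 9427 CPM in the control libraries. Neither overlapped between groups.

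The other 6 mitochondrial mRNAs, mt-Co2, mt-Co3, mt-Atp6, mt-Atp8, mt-Nd3 and mt-Nd4l, were listed at no more than 57.6 CPM in any library, against at least 206 CPM for the 7 named before. Among them mt-Co3 was called risen with overlapping groups (19.4 to 30.9 CPM in the mimic libraries and 13.5 to 22.5 CPM in the control libraries), and mt-Atp6, mt-Co2 and mt-Atp8 were called fallen. These calls are part of the 10 fallen and 1 risen of the 13, and all 6 genes enter the median. Why the 6 were listed so far below the other 7 was not tested, and how their reads were assigned is not given. Their levels and changes are therefore uncertain. With total counts only, 10 of the 13 again fell (76.9%, against 32.2% of all tested genes) and 1 rose (7.69%, against 17.0%). The median was then -0.27.

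Of 48 assembly factors listed outside the rule, 46 were tested. Of these 19 rose (41.3%, against 24.3% of all tested genes) and 7 fell (15.2%, against 24.8%), with a median of 0.083. Ecsit, a complex I factor, had 45.4, 48.1 and 46.5 CPM in the mimic libraries, against 38.9, 37.8 and 37.6 CPM in the control libraries, without overlap (log2 change 0.29 ± 0.039 SE, adjusted p = 2.0e-07). Coa5 of complex IV and Uqcc1 of complex III also rose (0.18 and 0.20). Cox20, a chaperone of the mitochondrially encoded Cox2 protein, had 13.7, 11.4 and 15.9 CPM in the mimic libraries, against 19.3, 18.7 and 17.9 CPM in the control libraries. It fell in the fit (log2 change -0.44 ± 0.077 SE, adjusted p = 1.5e-05) and its groups did not overlap. The complex IV copper chaperone Cox17 and the factors Cmc1, Cmc2, Cox14, Cox15 and Lyrm7 were the others that fell, with log2 changes of -0.19 to -0.12. Scaled to total counts only, 14 rose (30.4%, against 17.0% of all tested genes) and 9 fell (19.6%, against 32.2%).

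Of 16 electron carriers, flavoprotein and coenzyme Q synthesis genes, 4 rose and 4 fell, with a median of 0.0069. These shares were near those of all tested genes, of which 24.3% rose and 24.8% fell. Cycs, cytochrome c itself, had 322, 302 and 301 CPM in the mimic libraries, against 251, 250.2 and 250.2 CPM in the control libraries. The groups lay far apart (log2 change 0.30 ± 0.023 SE, adjusted p = 3.2e-12). Coq4, of the coenzyme Q synthesis complex, rose by 0.27. Coq2, which joins the ring to the isoprenoid tail, had 38.6, 35.3 and 37.0 CPM in the mimic libraries, against 45.3, 45.2 and 46.2 CPM in the control libraries, and every mimic library was lower (log2 change -0.30 ± 0.040 SE, adjusted p = 2.0e-07). Etfdh, which passes electrons from fatty acid oxidation to coenzyme Q, fell (log2 change -0.23 ± 0.036 SE, adjusted p = 3.6e-06). Scaled to total counts only, 2 rose (12.5%, against 17.0% of all tested genes) and 7 fell (43.8%, against 32.2%).

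Of 18 tested regulators (20 listed) of mitochondrial gene expression and of nuclear respiratory genes, 10 rose (55.6%, against 24.3% of all tested genes) and 1 fell (5.56%, against 24.8%), with a median of 0.14. With total counts only 9 rose and 1 fell, where 17.0% and 32.2% of all tested genes did. Lrpprc, an RNA-binding protein that stabilises mitochondrial mRNAs, had 175, 176 and 171 CPM in the mimic libraries, against 147, 148 and 148 CPM in the control libraries, without overlap (log2 change 0.23 ± 0.023 SE, adjusted p = 7.9e-10). Its partner Slirp rose by 0.20, and Pprc1, a coactivator related to PGC-1, by 0.18. Gabpb2, a subunit of an ETS-family factor known from nuclear respiratory promoters, had 68.7, 68.1 and 71.0 CPM in the mimic libraries, against 83.2, 82.4 and 82.8 CPM in the control libraries. It was the regulator that fell (log2 change -0.26 ± 0.031 SE, adjusted p = 2.6e-08), while Gabpb1 rose by 0.23 and Gabpa was not called (0.086 ± 0.037 SE). Nrf1, Tfam and Yy1, outside the naming rule, rose by 0.20, 0.14 and 0.13. Ppargc1a had at most 0.066 CPM in any library and was not tested.

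Promoters were read for 4 short words, on both strands, since most members moved the same way and the factors that bind such words are known from promoters of respiratory genes. RefSeq (GRCm38.p6) gave 73 windows for the 90 tested rows, each from 250 bases before to 50 bases after the start. Both Atp5po rows share a window, which was counted once. GCGCATG, part of the NRF1 motif, was present in 15 of 73 member windows (20.5%), against 705 of 9368 windows of tested genes (7.53%). The YY1 core AAGATGG was in 11 (15.1%) against 7.62%, the ETS core CCGGAAG in 17 (23.3%) against 19.3%, and the E-box CACGTG in 7 (9.59%) against 10.4%. The windows of the highest subunit, the highest assembly factor and the lowest member by log2 change are shown 5' to 3' in the gene's direction, with the words in capitals (on either strand, overlapping words joined).
Atp5mg, chr9:44920693-44920992, minus strand: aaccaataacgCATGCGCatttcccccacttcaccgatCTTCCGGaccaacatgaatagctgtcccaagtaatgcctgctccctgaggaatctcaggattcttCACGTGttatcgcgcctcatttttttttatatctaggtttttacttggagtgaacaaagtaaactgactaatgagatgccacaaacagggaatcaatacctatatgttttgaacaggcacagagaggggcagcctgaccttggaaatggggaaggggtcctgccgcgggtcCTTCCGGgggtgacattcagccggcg
Ndufaf4, chr4:24897833-24898132, plus strand: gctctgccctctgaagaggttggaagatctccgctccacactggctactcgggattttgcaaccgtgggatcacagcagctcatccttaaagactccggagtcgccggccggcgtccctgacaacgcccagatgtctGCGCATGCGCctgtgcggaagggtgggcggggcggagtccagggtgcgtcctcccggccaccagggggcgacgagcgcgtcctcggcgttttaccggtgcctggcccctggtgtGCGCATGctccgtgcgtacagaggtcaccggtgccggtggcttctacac
Atp5if1, chr4:132535365-132535664, minus strand: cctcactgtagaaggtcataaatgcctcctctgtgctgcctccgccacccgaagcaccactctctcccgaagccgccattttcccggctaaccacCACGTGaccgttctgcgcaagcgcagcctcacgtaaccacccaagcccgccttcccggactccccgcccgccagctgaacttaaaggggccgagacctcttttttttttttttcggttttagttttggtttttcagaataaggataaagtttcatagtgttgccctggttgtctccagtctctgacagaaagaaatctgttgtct
Atp5mg held the NRF1 word once, the ETS word 2 times and the E-box once, and Atp5if1 held the E-box once. Ndufaf4 held the NRF1 word 3 times, counted over both strands. These lie in 2 stretches, since the word overlaps its own reverse complement in GCGCATGCGC. Other windows differed from these. Ndufa12, Ndufb3 and Cox7b, which rose, held none of the words, while Ndufaf5 and Atp5mc2, which were not called, held the NRF1 word. Whether the words go with the change of a member was not tested. These are matches of letters and not measured binding.

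Members covered a wide range of levels. Per kilobase of annotated mRNA, the median of 8 assembly factors was 17.2 CPM per kb in the mimic libraries and 15.7 in the control libraries, and that of 77 subunits with an mRNA length was 150.3 and 143 CPM per kb. Atp5f1b was the highest member, at 1409 CPM per kb in the mimic libraries and 1334 in the control libraries, followed by Atp5mc3 (652 and 593) and Cox4i1 (597 and 523). The deposited FPKM ranked some members lower. FPKM divides by a length and by a library total, and the length implied by counts and FPKM was at least 1.14 times the annotated mRNA for 88 members. For 9 of them the ratio was the same, 1.14, within 0.1%, so a factor of this size may be a scale common to all genes and not length. Relative to it the median ratio was 1.62, 14 members were over 3, and Atp5mg, with an mRNA of 544 bases, had the highest, 11.8. Atp5mg stood at 26.9 FPKM in the mimic libraries and 21.4 FPKM in the control libraries, and at 368 and 286 CPM per kb of mRNA.

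**Figure D4:**
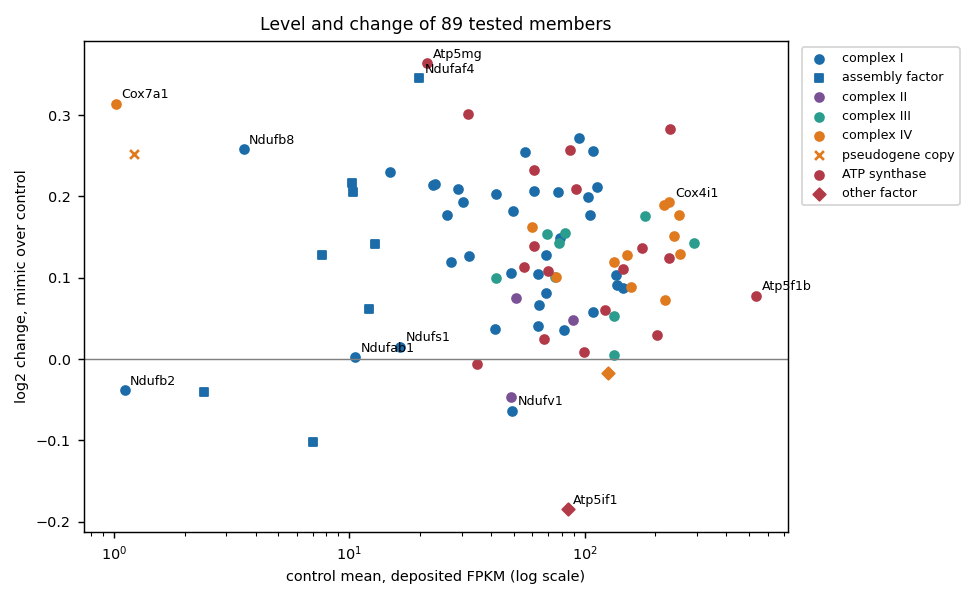
Deposited FPKM, mean of the 3 control libraries (horizontal, log scale), against log2 change of mimic over control libraries (vertical) for 89 of the 90 tested members, with colours for complexes and shapes for roles. Assembly factors (squares) lie at 20 FPKM or less, and risen members are found from low to high levels.

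Over all tested genes the median log2 change was higher in bands of shorter implied length, and members were set beside all genes within these bands. The implied lengths carry the factor of 1.14 given above. Under 500 bases the 1 member, at 0.087, was near the median of 0.080 over 234 genes. Between 500 and 1000 bases, the median log2 change was 0.19 for 16 members and 0.053 for 607 genes. Between 1000 and 2000 bases it was 0.11 for 30 members and 0.032 for 1465 genes. It was 0.12 against -0.0041 (30 members, 3576 genes) between 2000 and 4000 bases, and 0.13 against -0.020 (13 members, 7897 genes) above 4000 bases. With a trend on implied length removed over all genes, the members' median was 0.12.

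The number of calls depended on how libraries were scaled. Of the 67 calls, 47 were also made with total counts only, and none was made in the opposite direction. TMM factors were 0.98 for each mimic library and 1.02 for each control library. With total counts only, 17.0% of all tested genes rose and 32.2% fell, and of the members 45 rose and 5 fell, the fallen being Ndufv1, Sdhc, Cox7a2l, Atp5if1 and Atp5mc1. Under this scaling 2 of 7 complex I core, 17 of 30 supernumerary, 5 of 9 complex III and 8 of 12 complex IV subunits rose. Of the 18 ATP synthase subunits 11 rose and 1 fell, and of the 3 complex II subunits none rose and 1 fell. The 20 calls not made there were Ndufaf2, Ndufaf7, Ndufaf8, Ndufs3, Ndufs8, Ndufa1, Ndufa13, Ndufa6, Ndufa8, Ndufb1, Ndufb11, Sdhb, Cyc1, Uqcrc2, Cox6a1, Cox6c, Cox7c, Atp5f1b, Atp5f1d and Atp5mj, with log2 changes of 0.0034 to 0.16 and adjusted p of 0.053 to 0.92 (edgeR). With totals that leave out mitochondrially encoded and ribosomal protein genes, 43 members rose and 5 fell, against 16.8% and 32.5% of all genes. DESeq2's Wald test called 62 members risen and 1 fallen, against 20.4% and 17.6% of all genes. With limma on log2(FPKM + 1), 47 rose and 3 fell, against 14.9% and 21.9%.

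**Figure D5:**
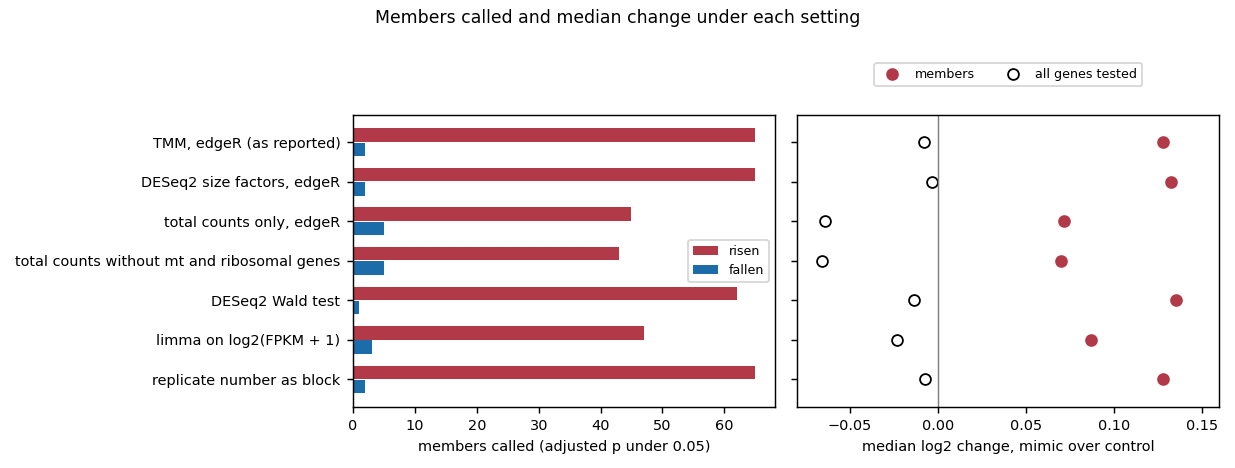
Left, number of members called risen (red) and fallen (blue) under 7 settings. Right, median log2 change of mimic over control libraries for members (filled) and for all genes tested (open), with members above 0 and all genes below 0 in each of the 7.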

How the data were processed

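Polyadenylated RNA of 6 libraries was sequenced as strand-specific paired-end reads, per the labels' protocols. HISAT2, DESeq2 and the build GRCm39 are named, with no tool versions, in the submitters' processing notes. Which program counted reads, with which annotation and with which strand setting, is not given in the sources used here, so reads of overlapping genes may have been split or shared. The authors deposited whole-number counts per gene and FPKM values rounded to 2 decimals, 1 column per library in each table.

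The whole count table was fitted in R 4.3.3 by edgeR's quasi-likelihood test (version 4.0.16; filterByExpr, TMM scaling), with Benjamini-Hochberg adjustment. The SE is the size of the log2 change divided by the square root of F. At most 0.071% of a library's counts lay outside the tested genes. Libraries of 1 group differed by more than sampling noise (mean chi-square per gene 1.85 to 2.23). Same-numbered libraries deviated together with correlations of 0.031, 0.069 and 0.086, so numbers were not used as pairs. The steps were tested on simulated data in which few genes changed, in both directions. Such data do not test the choice of scaling. Alternatives were limma 3.58.1 on log2(FPKM + 1) and log2(FPKM + 0.1) of genes at 0.1 FPKM or more in 3 libraries, the DESeq2 1.42.0 Wald test, other scalings and filters, a replicate block, each library left out, an adjusted p under 0.01, and removal of a lowess trend (span 0.3) on the length implied by counts and FPKM.

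Named members were the 2 risen subunits with the smallest adjusted p in each complex, the fallen members, all assembly and other factors, the 5 largest and 5 smallest changes at 2 CPM or more, tissue isoforms, c-ring paralogs, untested members, those with a seed match, called mitochondrial mRNAs and up to 4 called genes of each other list. One gene that this rule takes is counted in the totals and not reported by name here. Members and lists were chosen with earlier results of these data known. Promoters, 3' UTRs and mRNA lengths were taken from RefSeq and GENCODE M21 for GRCm38 by gene ID or symbol, while the deposited values rest on GRCm39.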

Additional observations from a re-analysis of the deposited data

How the results depend on the processing

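No named member was called in opposite directions under any alternative. With total counts only, 45 members rose and 5 fell (subunits fallen 3, assembly factors risen 2), and the medians were 0.071 for all members, 0.048 for complex I core, 0.11 for supernumerary subunits, 0.078 for assembly factors, -0.0085 for complex II, 0.086 for complex III, 0.084 for complex IV and 0.062 for the ATP synthase. The 2 risen assembly factors were of 8 tested, where 17.0% of all tested genes rose and 32.2% fell. Of the 67 calls 47 were the same and none was opposite. With totals that leave out mitochondrially encoded and ribosomal protein genes, 43 rose and 5 fell (subunits fallen 3, assembly factors risen 1 of 8). Of all tested genes, 16.8% rose and 32.5% fell under this scaling. The medians were 0.070, 0.046, 0.11, 0.077, -0.010, 0.085, 0.082 and 0.060 in that order. DESeq2's Wald test gave 1 fallen member, 0 fallen subunits and 3 risen assembly factors, where 20.4% of all genes rose and 17.6% fell. No filter gave 1 and 0 fallen, where 13.4% of all genes rose and 13.0% fell. An adjusted p under 0.01 gave 1, 0 and 3, where 19.7% of all genes rose and 19.2% fell. With limma on log2(FPKM + 1), 2 subunits fell and 3 assembly factors rose, where 21.9% of all genes fell and 14.9% rose. The medians were 0.087, 0.067, 0.12, 0.091, 0.012, 0.11, 0.10 and 0.082. With a pseudocount of 0.1 the counts were 2 and 3, where 21.8% of all genes fell and 14.9% rose. The medians were then 0.090, 0.068, 0.13, 0.099, 0.012, 0.11, 0.10 and 0.083. With the length trend removed, the medians were 0.081 for complex I core, 0.022 for complex II and 0.11 for complex III. The causes of these differences were not tested.

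With 1 library left out, 61 to 64 members rose and 1 fell, 57 to 59 subunits rose and 0 fell, and 3 to 5 assembly factors rose. Of all tested genes, 21.6% to 23.1% rose and 21.2% to 22.4% fell in these fits. The medians were 0.12 to 0.14 for all members, 0.087 to 0.12 for complex I core, 0.15 to 0.17 for supernumerary subunits, 0.13 to 0.16 for assembly factors, 0.033 to 0.060 for complex II, 0.13 to 0.16 for complex III, 0.13 to 0.15 for complex IV and 0.12 to 0.14 for the ATP synthase. Calls lost in at least 1 of the 6 fits were Ndufv1 (6), Ndufa1 and Atp5f1d (4 each), Ndufaf8 (3), Ndufaf7 and Cox6a1 (2 each), Ndufa13 and Ndufb1 (1 each). The replicate number as a block (replicate block) gave 65 risen and 2 fallen members, against 24.7% and 25.3% of all tested genes. It changed the call of 0 of 90, and the numbers were not shown to pair the libraries. When each gene was read in its longest-coding transcript, 6 of 87 members (6.90%) held a seed match, against 18.6% of genes. Low counts limit Ndufaf3, Ndufb2 and Cox7a1 in particular.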

Other observations

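Some genes outside the members and outside the naming rule, chosen after their values were seen, had log2 changes beyond the members' upper quartile of 0.20 or below their lowest value of -0.18. Sdhaf1, which serves the iron-sulphur subunit of complex II, had 8.37, 10.8 and 10.3 CPM in the mimic libraries, against 6.57, 8.32 and 7.16 CPM in the control libraries (log2 change 0.43 ± 0.099 SE, adjusted p = 5.7e-04), without overlap. Uqcc3 and Uqcc6 of complex III had 12.9 CPM in the mimic libraries and 10.1 CPM in the control libraries and 17.4 CPM in the mimic libraries and 14.0 CPM in the control libraries, with log2 changes of 0.34 and 0.32 (adjusted p = 3.4e-04 and 8.4e-05, edgeR). Coq8a, a kinase-like protein of coenzyme Q synthesis, had 2.68, 1.73 and 2.53 CPM in the mimic libraries, against 3.12, 2.77 and 3.71 CPM in the control libraries (log2 change -0.48 ± 0.16 SE, adjusted p = 0.016), and Coq9 had 32.8, 32.4 and 33.5 CPM in the mimic libraries, against 37.9, 37.8 and 37.9 CPM in the control libraries (log2 change -0.20 ± 0.041 SE, adjusted p = 1.2e-04), the mimic libraries being lower in both.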
